A study of Homo sapiens with 9 samples.

Results

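The genes described here are the 2 cytosolic HSP90 chaperones, 6 co-chaperones that work with them, and the heat-shock factors HSF1 and HSF2. These 10 genes were chosen by symbol from the 60591 symbols of the deposited count table, and all 10 passed the filter on low counts that left 15944 genes for testing. Messenger RNA was sequenced in undifferentiated cells (uCaco-2) of the line Caco-2, which was derived from a human colon adenocarcinoma, after 24 h in medium with 300 μM cobalt chloride (CoCl2), with 5 μM of the oxyquinoline derivative 4896-3212 (OD), or with neither. Each condition had 3 replicates of the same line. The labels state 0.5% DMSO for control and CoCl2 medium, to match OD, but diluting a 10 mM OD stock to 5 μM gives 0.05%, so whether the vehicle was equal in OD medium is uncertain. Both agents served to imitate hypoxia chemically, by blocking the prolyl hydroxylases that mark hypoxia-inducible factor (HIF) for degradation.

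HSP90 is an abundant dimeric chaperone that completes the folding of kinases, steroid receptors and other client proteins in a cycle driven by ATP. Co-chaperones load clients, speed up or hold back the ATPase, and carry clients over from HSP70. HSF1 is held inactive in unstressed cells, in part by chaperones, and when unfolded protein accumulates it forms trimers that bind repeats of the unit nGAAn, called heat-shock elements, in front of chaperone genes, whereas HSF2 is a related factor that can form mixed trimers with it.

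Total counts per library were 15998136 to 18298190 in control cells, 16286502 to 24209427 with CoCl2 and 16387054 to 19623776 with OD. Levels are given as CPM, in which each library is brought to the same total and corrected with trimmed means of M-values (TMM). These factors were 1.11 to 1.12 in control, 0.77 to 0.795 with CoCl2 and 1.14 to 1.15 with OD. A gene was called when its adjusted p in edgeR's quasi-likelihood test was under 0.05 and its log2 fold change was above 1 in size, and standard errors (SE) are on the log2 scale. Of 5 target genes of HIF 4 were tested, and all 4 were higher with both agents at an adjusted p under 0.05. With CoCl2 4 were called and with OD 3, where 43.2% and 13.3% of all genes were called. Among them were VEGFA (log2 fold change 1.22 with CoCl2 and 1.41 with OD) and PDK1 (2.39 and 3.26). Of 8 epithelial markers 7 were tested, CDX1 was at 0 in every library, and VIL1 (-2.45) and KRT20 (-1.44) were downregulated with CoCl2. The other 5 tested markers were higher with CoCl2 at an adjusted p under 0.05 and not called, namely EPCAM (0.36), KRT8 (0.35), CDH1 (0.28), KRT18 (0.26) and CDX2 (0.18). As a mean share of the library, all 7 tested markers were lower with CoCl2 than in control, as for KRT8 (0.497% against 0.554%). The rise of these 5 markers, and of the summed level given next, therefore depends on the TMM scaling. The summed level of the 8 markers was 9995 to 10459 CPM in control, 11745 to 12607 with CoCl2 and 9456 to 9978 with OD. Markers of leukocytes, endothelium and fibroblasts (PTPRC, PECAM1, COL1A1, COL3A1) summed to 18.4 to 28.4 CPM over all libraries, and PTPRC had at most 3 counts. The part of these marker differences in the results below was not tested. In bulk RNA, a change in the number of cells that express a gene cannot be told apart from a change in its RNA per cell.

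Sequence in front of 4 of the genes is shown first, since the heat-shock element is the site through which heat-shock factors are known to act on chaperone genes. RefSeq promoter windows of GRCh38.p14, which span 250 bases before and 50 bases from each annotated start, were available for 8 of the 10 genes, with 14 windows in all. FKBP4 and HSF1 had no entry in that table. A heat-shock element of 3 units was taken as a GAANNTTC pair and a TTCNNGAA pair that share a unit, on either strand, and each pair reads the same on both strands. HSP90AA1, HSP90AB1 and CHORDC1 held it, which is 3 of 8 genes and 3 of 14 windows, whereas 172 of the 35116 windows in the table (0.49%) did. The stretches below are read 5′ to 3′ on the strand of the gene, and capitals mark the element. The CDC37 stretch is shown for comparison, because no window of CDC37 held the element.
HSP90AA1, chr14:102087045-102087164, minus strand, inside the gene and just before its canonical transcript: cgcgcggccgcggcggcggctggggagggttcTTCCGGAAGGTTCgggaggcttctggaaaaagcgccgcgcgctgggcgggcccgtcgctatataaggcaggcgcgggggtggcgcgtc
HSP90AB1, chr6:44247743-44247862, plus strand, in an intron of the canonical transcript and before another annotated start: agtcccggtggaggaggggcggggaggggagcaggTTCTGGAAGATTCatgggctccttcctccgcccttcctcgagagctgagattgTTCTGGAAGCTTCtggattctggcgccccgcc
CHORDC1, chr11:90223080-90223199, minus strand, before the gene: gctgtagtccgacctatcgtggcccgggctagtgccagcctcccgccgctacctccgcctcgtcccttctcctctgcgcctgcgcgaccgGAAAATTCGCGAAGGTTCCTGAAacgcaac
CDC37, chr19:10403603-10403722, minus strand, inside the gene and before its canonical transcript: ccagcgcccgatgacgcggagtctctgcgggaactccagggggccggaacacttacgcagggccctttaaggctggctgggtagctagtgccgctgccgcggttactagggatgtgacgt

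The element lay at bases -88 to -76 from the start in HSP90AA1. HSP90AB1 held 2 copies, at -165 to -153 and at -112 to -100 from a start inside the gene. In CHORDC1 the matches overlapped each other and formed 1 run, between -60 and -38. The core of the hypoxia response element, ACGTG on either strand, was present in 7 of the 14 windows and in 4 of the 8 genes (HSP90AB1, AHSA1, PTGES3 and HSF2), against 21.4% of all windows. The matches in HSF2 lay on both strands and overlapped. The windows of AHSA1 overlap each other, as do those of HSF2, so the same site was counted in more than 1 window. A match is a description of the letters, and binding was not measured.

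**Figure D1:**
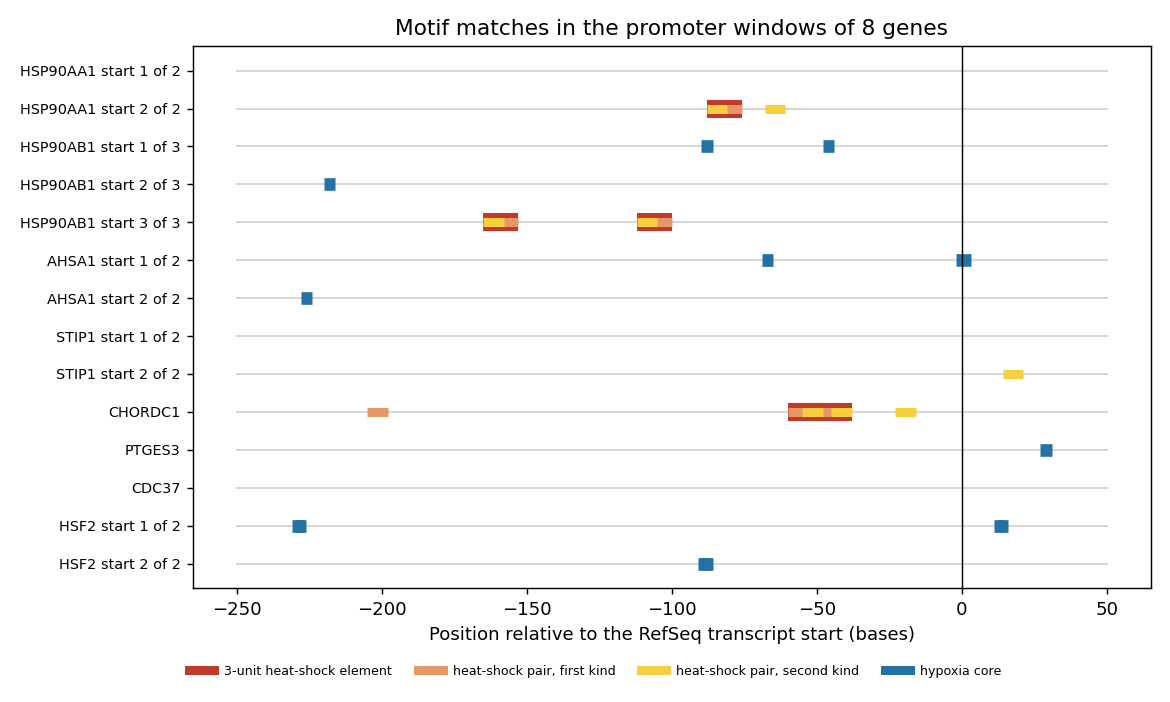
Map of the RefSeq promoter windows of 8 of the genes, with the distance from the annotated start in bases on the x axis and 1 line per window. Marks show the 3-unit heat-shock element, present in 1 window each of HSP90AA1, HSP90AB1 and CHORDC1, the single heat-shock pairs of both kinds (GAANNTTC and TTCNNGAA), and the hypoxia core ACGTG, present in 7 windows.

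With CoCl2, 6 of the 10 genes were called, all 6 upregulated, where 43.2% of all genes tested were called, 19.9% as upregulated and 23.4% as downregulated. Their median log2 fold change was 1.03, against -0.049 over all genes tested. All 10 had an adjusted p under 0.05, 9 of them higher and 1 lower, as did 83.2% of all genes (40.4% higher and 42.8% lower). The CoCl2 libraries lay wholly above the control libraries for the same 9 genes and wholly below them for FKBP4, which held for 40.5% and 42.9% of all genes. With library sizes in place of TMM, the median of all genes with CoCl2 moved from -0.049 to -0.55, 11.5% of all genes were called as upregulated and 36.6% as downregulated, and HSP90AA1 was the only 1 of the 10 genes called. A change of scaling shifts the log2 fold changes of all genes by nearly the same amount. Distances from the median of all genes are therefore nearly fixed in advance and do not test the calls. For example, HSP90AB1 lay 1.16 and HSF2 1.08 above that median under both scalings.

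With OD, 2 of the 10 were called, both downregulated, where 13.3% of all genes were called, 9.09% as upregulated and 4.16% as downregulated. The median log2 fold change with OD was -0.67, against -0.010 over all genes. An adjusted p under 0.05 was reached by 9 of the 10, all of them lower, and by 65.6% of all genes (32.3% higher and 33.3% lower). The OD libraries lay wholly below the control libraries for these 9 genes and wholly above them for 0, against 34.3% and 33.7% of all genes. Both comparisons use the same control libraries and are therefore not independent of each other.

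In the direct comparison of the agents, 8 of the 10 were called as higher with CoCl2 than with OD, where 41.3% of all genes were called, 17.5% as higher and 23.8% as lower. All 10 were higher at an adjusted p under 0.05, where 83.5% of all genes passed (40.2% higher and 43.2% lower). All 10 also had every CoCl2 library above every OD library, which held for 40.3% of all genes, while 43.5% lay the other way. With library sizes 5 of the 10 were called as higher, beside 8.47% of all genes called as higher and 37.8% as lower. CDC37 (1.64-fold) and HSF1 (1.57-fold) were the 2 genes that stayed within the fold threshold between the agents.

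**Figure D2:**
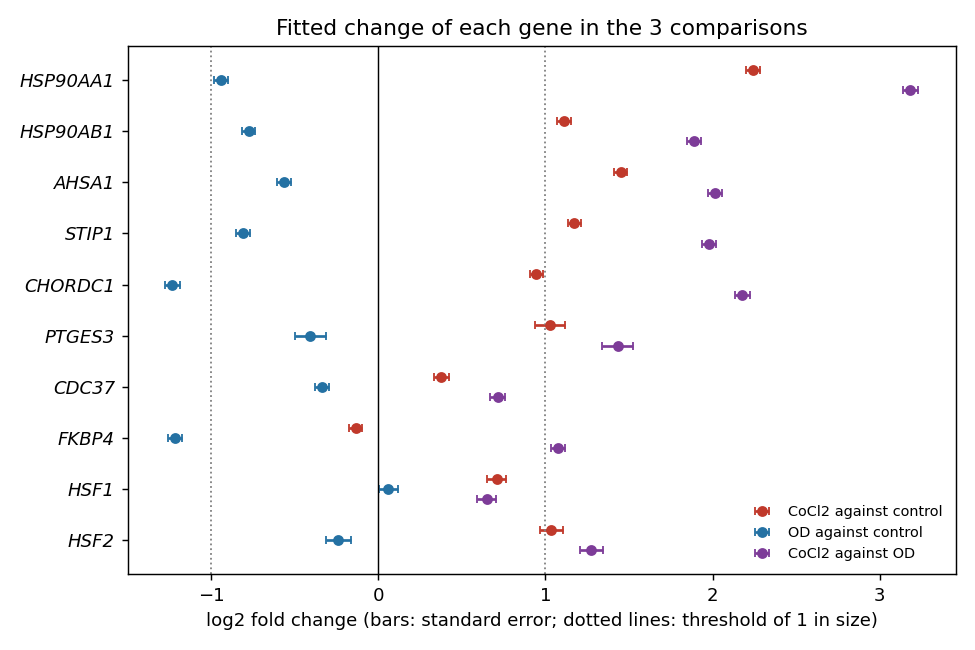
Log2 fold changes of the 10 genes with CoCl2 and with OD against control and with CoCl2 against OD, with bars for the standard error of edgeR's fit and lines at the threshold of 1 in size. HSP90AA1 reached 2.24 with CoCl2, FKBP4 and CHORDC1 lay below -1 with OD, and HSF1 lay at 0.060 with OD.

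HSP90AA1 encodes HSP90α, the stress-inducible cytosolic form. Its level was 2065, 2086 and 2119 CPM in the 3 control libraries, 10443, 9751 and 9428 CPM with CoCl2, and 1082, 1038 and 1142 CPM with OD. All CoCl2 libraries lay far above the control libraries and all OD libraries below them. HSP90AA1 was upregulated 4.73-fold with CoCl2 (log2 fold change 2.24, SE 0.043, adjusted p = 4.95e-50) and was 1.92-fold lower with OD (-0.94, SE 0.042, adjusted p = 1.91e-29), a fall that did not reach the fold threshold. Between the agents the difference was 9.08-fold (adjusted p = 2.9e-57). By CPM it was gene number 21 of the 15944 in control cells, number 8 with CoCl2 and number 58 with OD.

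HSP90AB1 encodes HSP90β, the form that is made constitutively. It had 2892, 2751 and 2756 CPM in control, 6254, 5805 and 6078 CPM with CoCl2, and 1689, 1575 and 1641 CPM with OD. The 3 groups did not overlap, in the same order as for HSP90AA1, with a smaller distance between CoCl2 and control. The change was 2.16-fold upward with CoCl2 (log2 fold change 1.11, SE 0.040, adjusted p = 7.06e-35) and 1.71-fold downward with OD (-0.78, SE 0.040, adjusted p = 5.5e-26). HSP90AB1 was number 17 by CPM in control, number 15 with CoCl2 and number 27 with OD.

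The makeup of the cytosolic HSP90 pool was compared as a share within each library, which does not depend on the scaling between libraries. HSP90AA1 made up 41.7%, 43.1% and 43.5% of the counts of both genes in control, 62.5%, 62.7% and 60.8% with CoCl2, and 39.0%, 39.7% and 41.0% with OD. The widest 95% Wilson interval of a single library spanned 0.843 percentage points, which covers counting error only. HSP90α transcripts were thus the larger part of the counts with CoCl2 and the smaller part in the other groups. The share was 19.3 percentage points higher with CoCl2 and 2.82 points lower with OD than in control (means 42.7% ± 0.958, 62.0% ± 1.05 and 39.9% ± 1.01 for control, CoCl2 and OD, SD, n = 3). No groups overlapped, and the exact permutation test gave its smallest possible two-sided p of 0.1 for each difference (0.1 after adjustment over 9 such tests), so that 3 libraries against 3 cannot pass 0.05. Per kilobase of the canonical transcript, HSP90AB1 was above HSP90AA1 in control cells (1096 ± 31.2 against 647 ± 8.41 CPM per kb, SD, n = 3) and with OD (640.0 ± 22.5 against 337 ± 16.1), and below it with CoCl2 (2366 ± 88.4 against 3059 ± 161).

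**Figure D3:**
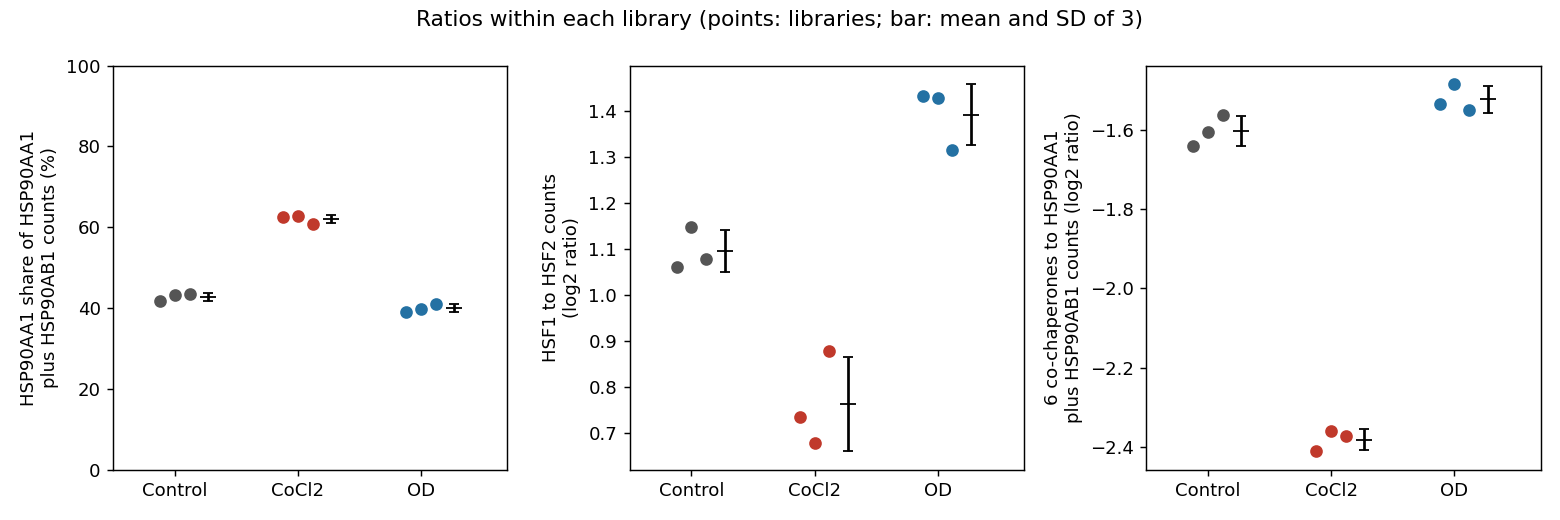
Ratios of counts within single libraries in control, CoCl2 and OD cells, with 1 point per library and a bar for the mean and SD of each group of 3. The HSP90AA1 share of both HSP90 genes (percent) is 60.8 to 62.7 with CoCl2, and the log2 ratios of HSF1 to HSF2 and of the 6 co-chaperones to the HSP90 genes are lowest with CoCl2.

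Among the co-chaperones, AHSA1 (AHA1) is the activator of the HSP90 ATPase. Its 3 libraries had 206, 192 and 199.97 CPM in control, 555, 525 and 550.4 CPM with CoCl2, and 141, 132 and 131 CPM with OD. The groups did not overlap. AHSA1 was upregulated 2.73-fold with CoCl2 (log2 fold change 1.45, SE 0.041, adjusted p = 1.34e-40), the next change in size after HSP90AA1 within the 10 genes, and was 1.48-fold lower with OD (-0.56, SE 0.043, adjusted p = 1.89e-18).

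STIP1 (HOP) is the adaptor that passes clients from HSP70 to HSP90. It had 473, 457 and 459 CPM in control, 1115, 998 and 1019 CPM with CoCl2, and 270.3, 255 and 268 CPM with OD. All CoCl2 libraries were above and all OD libraries below the controls, as for the HSP90 genes. The fold change was 2.26 upward with CoCl2 (log2 fold change 1.17, SE 0.041, adjusted p = 5.8e-36) and 1.75 downward with OD (-0.81, SE 0.042, adjusted p = 3.05e-26).

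CHORDC1 (morgana) is a zinc-binding co-chaperone with CHORD domains. Its level was 259, 269 and 289 CPM in control, 545, 529 and 500.4 CPM with CoCl2, and 116, 115 and 118 CPM with OD. The groups were separate, and the OD libraries lay within a narrow range far below the controls. With CoCl2 CHORDC1 was 1.93-fold higher (log2 fold change 0.95, SE 0.042, adjusted p = 1.4e-30), just inside the fold threshold and therefore not called. With OD it was downregulated 2.35-fold (-1.23, SE 0.044, adjusted p = 1.82e-34), and 2.27% of all genes had a lower fold change. The difference between the agents was 4.52-fold (adjusted p = 1.01e-48).

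FKBP4 (FKBP52) is an immunophilin of the steroid receptor complexes. It had 269, 252 and 266 CPM in control, 238, 234 and 244 CPM with CoCl2, and 115, 112 and 112 CPM with OD. The OD libraries stood far below the others, whereas the CoCl2 libraries lay only slightly below the controls. FKBP4 was downregulated 2.32-fold with OD (log2 fold change -1.21, SE 0.042, adjusted p = 5.02e-35), and 2.39% of all genes had a lower fold change. It was the only 1 of the 10 genes that was lower with CoCl2 than in control, by 1.1-fold (-0.14, SE 0.041, adjusted p = 0.00199), which is close to the median of all genes. With library sizes its log2 fold change was -0.64. Its distance from the median of all genes, which scaling hardly changes for any gene, was -0.087 with TMM and -0.088 with library sizes.

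PTGES3 (p23) holds HSP90 in its ATP-bound, closed state. Its libraries had 194, 238 and 232 CPM in control, 433, 495 and 425 CPM with CoCl2, and 156, 171 and 175 CPM with OD. The replicates were further apart than those of the other co-chaperones, although the groups did not overlap. PTGES3 was upregulated 2.04-fold with CoCl2 (log2 fold change 1.03, SE 0.091, adjusted p = 4.85e-06) and was 1.33-fold lower with OD (-0.41, SE 0.093, adjusted p = 0.00422). The call with CoCl2 was lost without control replicate 1 (0.94) or without CoCl2 replicate 2 (0.96).

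CDC37 brings kinases to HSP90. It had 191, 184 and 204 CPM in control, 252, 248 and 252 CPM with CoCl2, and 159.99, 149.9 and 149 CPM with OD. The groups did not overlap, but they were close to each other. CDC37 was 1.3-fold higher with CoCl2 (log2 fold change 0.38, SE 0.043, adjusted p = 3.34e-12) and 1.26-fold lower with OD (-0.34, SE 0.043, adjusted p = 4.55e-10), and neither difference reached the fold threshold. With library sizes in place of TMM, its log2 fold change with CoCl2 was -0.13. It lay 0.43 above the median of all genes under both scalings, a distance that scaling hardly changes for any gene.

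The 6 co-chaperones together were set against the 2 HSP90 genes as a log2 ratio of summed counts within each library. The ratio was -1.64, -1.60 and -1.56 in control, -2.41, -2.36 and -2.37 with CoCl2, and -1.53, -1.48 and -1.55 with OD. All CoCl2 libraries had fewer co-chaperone counts per HSP90 count than any other library. The mean differed from control by -0.78 on the log2 scale with CoCl2, which is 0.582 of the control ratio, and by 0.081 with OD. No groups overlapped, and the exact permutation p was 0.1, the smallest this design allows, for each of the 3 differences.

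**Figure D4:**
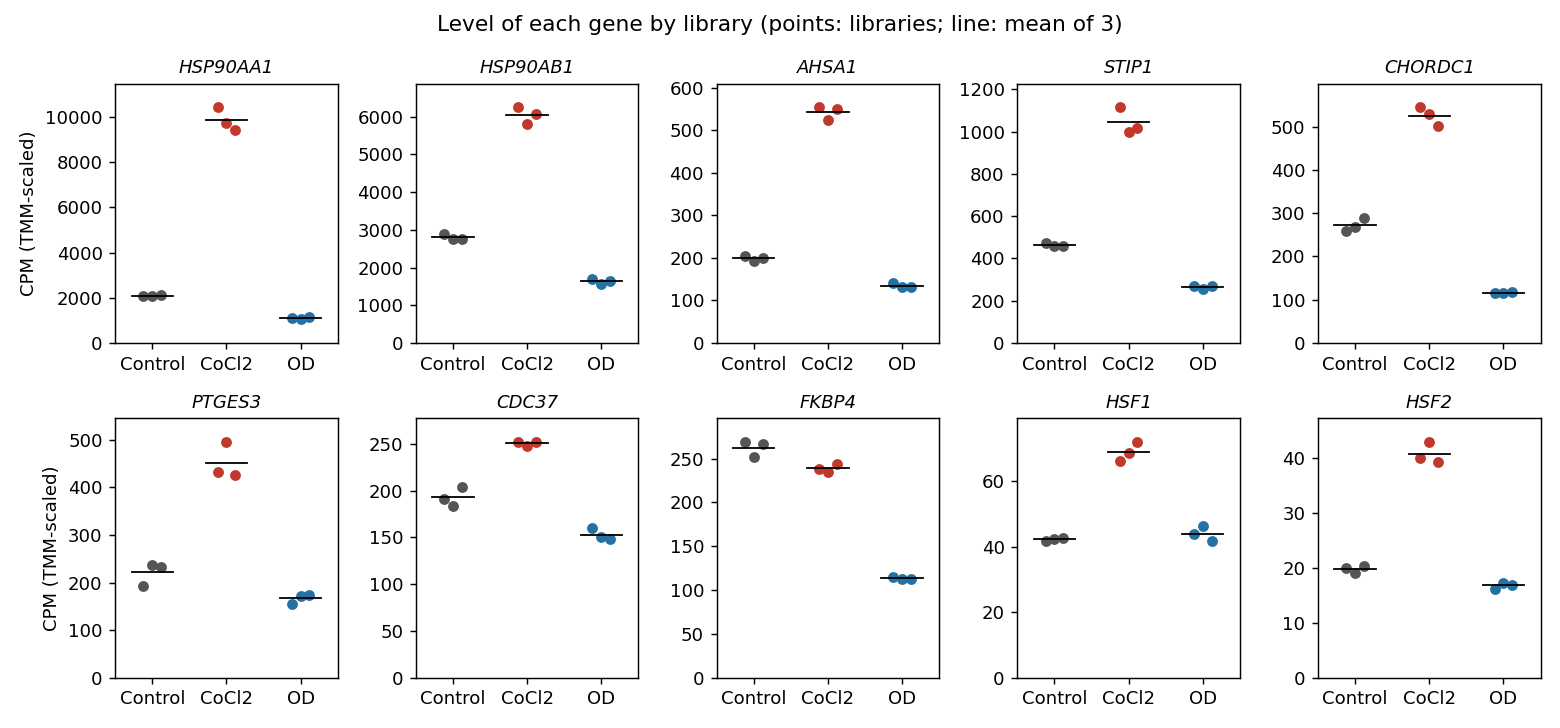
Levels of the 10 genes in each of the 9 libraries, as TMM-scaled CPM on a linear axis from 0 in each panel, with 1 point per library and a line at the mean of each group of 3. The CoCl2 libraries lie above the control libraries for 9 genes and below them for FKBP4, and the OD libraries lie below the control libraries for 9 genes and overlap them for HSF1.

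HSF1, the main factor of the heat-shock response, was expressed at 41.7, 42.4 and 42.7 CPM in control, 66.3, 68.6 and 72.0 CPM with CoCl2, and 43.8, 46.4 and 41.9 CPM with OD. The CoCl2 libraries were above the controls, and the OD libraries overlapped them. HSF1 messenger RNA was 1.63-fold higher with CoCl2 (log2 fold change 0.71, SE 0.056, adjusted p = 3.11e-18), below the fold threshold. With OD no difference was detected (0.060, SE 0.057, adjusted p = 0.359). HSF1 activity is known to be set mainly by trimer formation and modification of the protein, neither of which was measured here.

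HSF2 was lower still, with 20.0, 19.1 and 20.2 CPM in control, 39.9, 42.9 and 39.2 CPM with CoCl2, and 16.2, 17.3 and 16.8 CPM with OD. All CoCl2 libraries were above and all OD libraries below the controls. HSF2 was upregulated 2.05-fold with CoCl2 (log2 fold change 1.04, SE 0.068, adjusted p = 7.55e-22) and was 1.18-fold lower with OD (-0.24, SE 0.074, adjusted p = 0.00397). The PTGES3 and HSF2 calls with CoCl2 lie at the threshold, since a test against a log2 fold change of 1 itself (edgeR's glmTreat) gave adjusted p = 0.414 and 0.311.

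The log2 ratio of HSF1 to HSF2 counts was 1.06, 1.15 and 1.08 in control, 0.73, 0.68 and 0.88 with CoCl2, and 1.43, 1.43 and 1.31 with OD. HSF1 counts exceeded HSF2 counts in every library, by the least with CoCl2 and by the most with OD. The mean ratio differed from control by -0.33 with CoCl2 and by 0.30 with OD, with no overlap between groups and an exact permutation p of 0.1 for each.

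Per kilobase of transcript, the order of the 10 genes in control cells ran from HSP90AB1 and HSP90AA1 through STIP1 (216 ± 3.98 CPM per kb, SD, n = 3), AHSA1 (149 ± 5.25), CDC37 (119 ± 6.37), PTGES3 (117 ± 12.7), CHORDC1 (88.7 ± 4.93) and FKBP4 (70.6 ± 2.41) down to HSF1 (19.8 ± 0.235) and HSF2 (7.62 ± 0.230). CDC37 and PTGES3 overlapped, and no other neighbours did. With CoCl2 PTGES3 (238 ± 20.3) and CHORDC1 (171) stood above CDC37 (155), and no neighbours in the order overlapped. With OD the order of control cells returned, with AHSA1 (101), CDC37 (94.5) and PTGES3 (88.0) overlapping their neighbours among these 3. Both factors were thus below every chaperone and co-chaperone of the list in all 3 conditions.

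HSP90 genes of other compartments were set beside the cytosolic pair. HSP90B1 (GRP94), the form of the endoplasmic reticulum, had 1664 ± 15.1 CPM in control, 2494 ± 76.4 with CoCl2 and 1601 ± 92.7 with OD (SD, n = 3), and its log2 fold changes were 0.58 (adjusted p = 8.44e-21) and -0.056 (adjusted p = 0.219). TRAP1, the mitochondrial form, had 163 ± 4.18, 49.7 ± 2.41 and 108 ± 2.79 CPM. It was downregulated 3.27-fold with CoCl2 (-1.71, adjusted p = 2.82e-40) and was lower with OD (-0.60, adjusted p = 1.09e-18). TRAP1 was thus called as downregulated in the comparison in which HSP90AA1 and HSP90AB1 were called as upregulated.

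Of 30 other HSP90 co-chaperones 29 were tested. With CoCl2 8 were called, 6 upregulated and 2 downregulated, with a median log2 fold change of 0.32. Over all genes 43.2% were called, 19.9% as upregulated and 23.4% as downregulated, so the share called was below that of all genes and the share upregulated close to it. With library sizes the split was 2 upregulated and 5 downregulated. TSC1, which slows the HSP90 ATPase, rose by 2.03, and RPAP3, of the R2TP complex, by 1.44. FNIP1, which binds folliculin, rose by 1.40, and FKBP5, the immunophilin that counteracts FKBP4 in steroid receptor complexes, fell by 1.50 on the log2 scale. With OD 3 were called, with FNIP2 higher (1.47) and NUDC (-1.18) and AARSD1 (-1.05) lower, where 13.3% of all genes were called, and the median was -0.28. AARSD1 lay near the threshold (SE 0.22) with few counts, 30 to 52 in control and 22 to 25 with OD. Leaving out each replicate gave 2 to 3 calls among these co-chaperones with OD. NUDC and AARSD1 were named after their values were seen. FKBP4 and FKBP5, both receptor immunophilins, thus had log2 fold changes of -0.14 and -1.50 with CoCl2 and -1.21 and -0.70 with OD.

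Of 20 known target genes of HSF1 outside the 10, all of which were tested, 16 were upregulated with CoCl2 and 0 downregulated, with a median log2 fold change of 2.60, where 19.9% of all genes were called as upregulated. Apart from HSPA6, the largest changes were those of the inducible HSP70 genes HSPA1A (7.26) and HSPA1B (6.51), the small heat-shock protein CRYAB (5.03), the death-effector domain protein DEDD2 (3.86), and BAG3 (3.67), a nucleotide exchange factor of HSP70. HSPA6, another inducible HSP70, had the largest fitted change of the 20, with 1 count in each control library, 2673 to 4025 counts with CoCl2 and 5 to 12 with OD. HSPD1 and HSPE1, the mitochondrial chaperonin pair, were the 2 targets that were lower with CoCl2 at an adjusted p under 0.05 (-0.60 and -0.99). With OD 3 targets were called, HSPA6 as upregulated, and HSPH1 (-1.11), the HSP110 partner of HSP70, and HSPE1 (-1.13) as downregulated, with a median of -0.26, where 13.3% of all genes were called. The HSPA6 call with OD rests on few counts, and HSPA6 passed the filter on low counts only through its CoCl2 libraries. HSPD1, HSPE1 and HSPH1 were named after their values were seen. In the direct comparison all 20 had a positive log2 fold change with CoCl2 against OD (median 2.66), as did 7692 of all 15944 genes. Of the 20, 19 were higher at an adjusted p under 0.05, where 40.2% of all genes were. For HSPE1 no difference was detected (0.14, adjusted p = 0.4). Of the 20, 17 were called as higher, where 17.5% of all genes were. The 10 genes had medians of 1.03 with CoCl2 and -0.67 with OD in the same fits.

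Other genes with a heat-shock element gave a background for the promoter motif. Among 45 tested genes outside the 10 with a 3-unit element, the median log2 fold change with CoCl2 was 0.30, and 11 were upregulated and 6 downregulated. Among 10854 tested genes with a window and no such element the median was -0.065, and 1948 were upregulated and 2460 downregulated. With OD the medians were 0.044 and -0.019. Of the 18 HSF1 targets with a window, 5 held the element. These 5 are among the 45 genes, which are therefore not separate from the targets described above. HSP90AA1, HSP90AB1 and CHORDC1, which hold it, had log2 fold changes of 2.24, 1.11 and 0.95 with CoCl2. AHSA1, STIP1, HSF2, PTGES3 and CDC37, whose windows did not hold the 3-unit element, had 1.45, 1.17, 1.04, 1.03 and 0.38.

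Other genes of the heat-shock factor family were also read. HSF4, known from the lens, had log2 fold changes of -0.63 with CoCl2 and 0.92 with OD, and HSF5 had 16 to 17 counts in control, 1 to 4 with CoCl2 and 8 to 11 with OD. HSBP1, which binds HSF1 and lowers its activity, had 0.30 with CoCl2 and -0.48 with OD. The direction with CoCl2 depends on the scaling, since the mean HSBP1 share of the library was 0.0154% with CoCl2 and 0.0177% in control.

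All 16 genes listed as HSP90 clients were tested. With CoCl2 7 were called, 2 upregulated and 5 downregulated (median log2 fold change -0.025), a share close to the 43.2% of all genes called (19.9% upregulated and 23.4% downregulated). AHR (1.69) and EPAS1 (1.30), encoding a ligand-activated transcription factor and HIF-2α, were the genes that rose, whereas the kinase genes CDK4 (-2.05), ERBB2 (-1.72), AKT1 (-1.57), EGFR (-1.52) and CDK6 (-1.04) fell. With OD 3 were upregulated, EPAS1 (1.11), INSR (1.07) and SRC (1.07), and 0 were downregulated (median 0.49), where 13.3% of all genes were called, 9.09% as upregulated. HIF1A itself had 0.19 with CoCl2 and -0.54 with OD. Its direction with CoCl2 depends on the scaling, since its mean share of the library was 0.0133% with CoCl2 and 0.0165% in control. CDK6, INSR, SRC and HIF1A were named after their values were seen. Client proteins depend on HSP90 for their stability, which messenger RNA does not show.

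**Figure D5:**
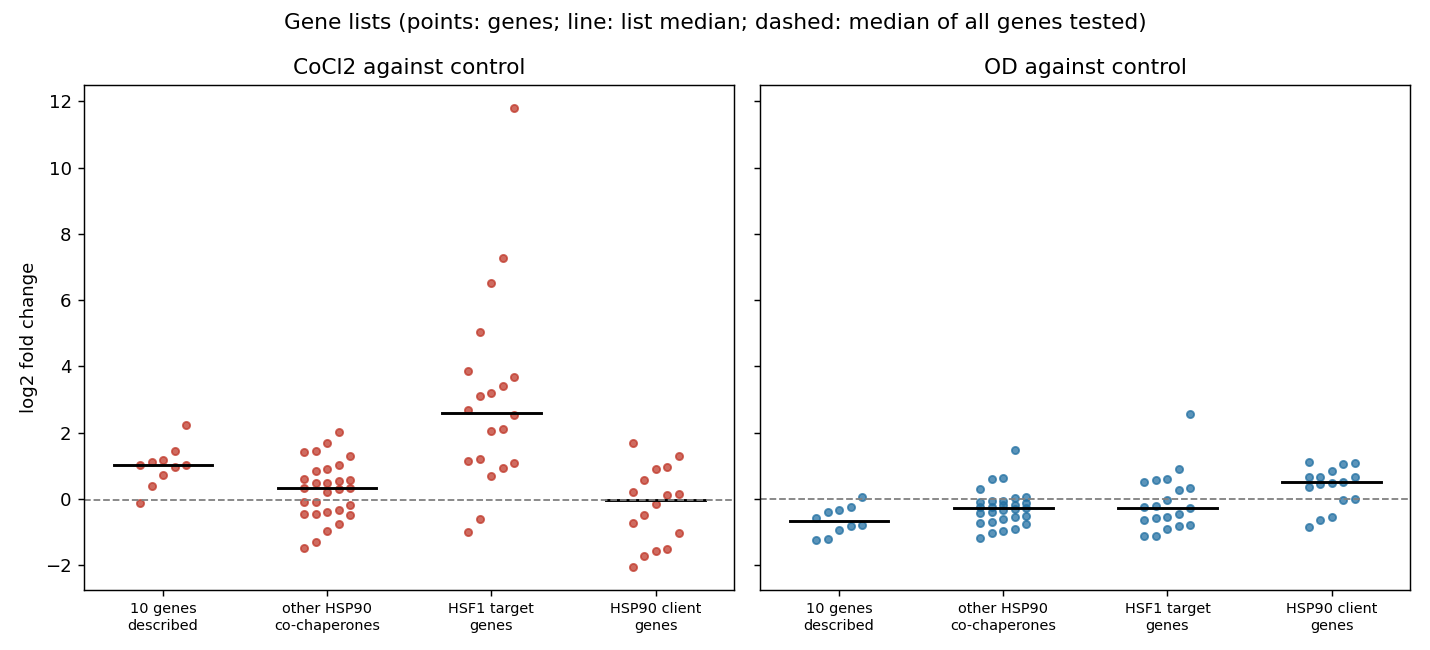
Log2 fold changes with CoCl2 and with OD for the 10 genes and for the lists of other HSP90 co-chaperones, HSF1 target genes and HSP90 client genes, with 1 point per gene, a line at each list's median and a dashed line at the median of all genes tested. The highest point of the HSF1 targets is HSPA6 in both panels, whose position depends on the prior count because control libraries had 1 count each. The medians are 1.03, 0.32, 2.60 and -0.025 with CoCl2 and -0.67, -0.28, -0.26 and 0.49 with OD.

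The patterns most like 3 of the genes were ranked by Pearson's r of log2 CPM over the 9 libraries, among the 9029 genes whose mean level reached 10 CPM. The libraries form 3 treatment groups, so the values describe group differences and not regulation. For HSP90AA1 the closest were GSPT1 (0.9997), EWSR1 (0.9996), HNRNPH1 (0.9995), SF1 and PSMA4 (0.9994 each), and 1348 genes had an r over 0.95. For HSP90AB1 the closest was STIP1 (0.9996), followed by ALYREF (0.999) and by WWP2, PUF60 and NECTIN2 (0.9987 each), and 994 genes had an r over 0.95. For HSF1 they were ASXL2 (0.9981), KMT2D (0.9968), RUBCN (0.9963), FTLP14 (0.9953) and ARHGEF18 (0.9948), and 1586 genes had an r over 0.95. STIP1 was the only 1 of the 10 genes among these neighbours.

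Retained copies of the genes bear on the counts, because reads that fit a gene and its copy could be split by the counting. Counts on 4 HSP90AA1 copies came to 0.155 to 0.261% of those on HSP90AA1, on 5 HSP90AB1 copies to 0.254 to 0.311%, and on 5 PTGES3 copies to 1.74 to 2.44%. The copy HSP90AA2P had 59 to 82 counts in control, 244 to 357 with CoCl2 and 28 to 53 with OD, with log2 fold changes of 2.30 and -1.12 beside the 2.24 and -0.94 of HSP90AA1. HSP90AB3P had 0.96 and -0.99 beside the 1.11 and -0.78 of HSP90AB1. Whether these are reads of the copies or misplaced reads of the parents was not tested. On GRCh38 the gene HSP90AA1 lies at chr14:102080742-102139699 on the minus strand, and 3.87% of its exonic bases overlap WDR20 on the other strand. HSP90AB1 lies at chr6:44246166-44253888 on the plus strand with no such overlap, FKBP4 at chr12:2794970-2805423 with 11.4% of its exonic bases shared with opposite-strand genes, and STIP1 at chr11:64185272-64204543 with 9.67%. CHORDC1 is at chr11:90200429-90223077, PTGES3 at chr12:56663341-56688408 and HSF2 at chr6:122399551-122433119, none of which shares exonic bases. AHSA1 is at chr14:77457870-77469472 (2.82% shared, opposite strand), CDC37 at chr19:10391133-10420121 (2.66%, with MIR1181 on its own strand) and HSF1 at chr8:144291591-144314720 (2.58%, opposite strand). The libraries were stranded, but the strand setting of the counting was not given in the sources used here, so the shared bases are uncertain.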

How the data were processed

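Per the labels, RNA of 9 uCaco-2 cultures was made into stranded poly(A) libraries and sequenced with single-end reads. The submitters' processing notes name FastQC 0.11.9, cutadapt 2.10, STAR 2.7.5b and GRCh38.p13. The deposited values are raw counts per gene symbol, made by the authors without normalization, and 0 columns of other samples were left unused. The counting tool and its strand setting were not given in the sources used here.

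TMM factors were computed in edgeR 4.0.16 (R 4.3.3). Its filter filterByExpr left 15944 of 60591 symbols, on which edgeR fitted a robust quasi-likelihood model over the 9 libraries with 1 mean per condition. P-values were adjusted by Benjamini-Hochberg over all genes tested, separately for each of 3 comparisons. A call needed a log2 fold change beyond 1 in either direction together with an adjusted p below 0.05, as in the study's methods. Ratios within libraries had two-sided exact permutation tests. The steps were tested on simulated data in which few genes changed, equally many in each direction. That setting does not test the scaling when as many genes change as with CoCl2. Replicates differed by more than sampling noise (chi-square per degree of freedom 1.83 to 3.35), and the replicate numbers were not taken as pairs. P-values measure the spread between the replicate samples of a single cell line.

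Named genes were the 10 members, up to 6 called genes of each list with the largest changes, and the paralogs, and 1 gene that this rule names is not reported here. The members and lists were chosen with earlier results of these data known. Transcript lengths and coordinates are those of GENCODE release 44 (GRCh38) for the same symbols, and promoter windows from RefSeq (GRCh38.p14). Alternatives were DESeq2 1.42.0, other scalings and filters, a replicate block, glmTreat and each replicate left out.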

Additional observations from a re-analysis of the deposited data

How the results depend on the processing

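Over the 10 genes, 3 comparisons and the alternatives run, 480 values were recomputed, of which 477 kept their direction and their side of the adjusted p threshold. With library sizes in place of TMM, CDC37 reversed with CoCl2 (-0.13), HSF1 between the agents fell to 0.10 (adjusted p = 0.0861), and the calls among the 10 genes dropped to 1 with CoCl2 and to 5 between the agents, with 6 of the other co-chaperones called between the agents. HSF2 with OD had an adjusted p = 0.0511 in DESeq2 on 6 libraries. With glmTreat, 1 HSF1 target and 1 client were called with OD. PTGES3 and HSF2 with CoCl2 lost their calls with upper-quartile scaling (0.93 and 0.94) and without a count filter (0.96 and 0.97), and PTGES3 also with at least 10 counts in every library (0.999). Leaving out each replicate gave 5 to 6 calls with CoCl2, 2 with OD and 8 between the agents. With the replicate number as a block the calls were 6, 2 and 8, and the smallest two-sided p for the ratios over 3 pairs was 0.25. Libraries of different groups correlated at -0.0049 to 0.038 when same-numbered (median 0.021) and at -0.047 to 0.025 when not (median -0.0095). These values are small and the numbers were not taken as pairs, but whether same-numbered cultures were handled together is uncertain. Depth limits genes with few counts in some groups, among them HSF5, HSPA6 and AARSD1.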
